A study of Mus musculus with 2 samples.

Results

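The genes described here are 9 genes by which hepatic stellate cells are recognised: Reln, Colec11, Ecm1, Lrat, Rgs5, Hgf, Pdgfrb, Des and Vim. They were taken by symbol from the table of 19465 genes, and all 9 were found in it. Their transcripts were counted by spatial transcriptomics in 1 liver section of a wild-type mouse (AEG-1-WT, below WT) and 1 liver section of a mouse in which cysteine 75 of AEG-1, the residue that carries a palmitoyl group, was changed to serine (AEG-1-C75S, below C75S). AEG-1, also called metadherin, is a scaffold protein. The knock-in allele was made by CRISPR/Cas9, and both mice were untreated females aged 8 weeks, littermates from a mating between heterozygotes. The livers were fixed in formalin, embedded in paraffin and cut at 5 μm. With 1 section per genotype, genotype, animal and section cannot be told apart, no test between genotypes was possible, and a single codon change is not visible in these counts, so the genotypes rest on the labels.

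Hepatic stellate cells lie in the space between the hepatocytes and the endothelium of the sinusoids, wrap around the sinusoids as pericytes do, and store vitamin A as retinyl esters in lipid droplets. In healthy liver they are quiescent and supply growth factors and extracellular proteins to their neighbours, and after injury they lose their retinoid stores and become collagen-producing myofibroblasts. A lobule runs from a portal tract, which has a connective tissue sheath with fibroblasts and arterial smooth muscle, to a central vein, and stellate cells occur along its whole length.

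Each section was measured on a grid of spots, and each spot holds several cells, mostly hepatocytes. After removal of spots with more than 50000 unique molecular identifiers (UMIs, each standing for 1 captured probe pair), 2309 WT spots with 42246988 UMIs and 2163 C75S spots with 41674347 UMIs remained. The median depth was 16830 UMIs per spot in WT and 18808 in C75S, and 1896 spot barcodes occurred in both sections. Levels are given as UMIs per 1000000 UMIs of the section (CPM), with exact 95% intervals in parentheses that cover counting error only and not differences between mice. Levels of different genes are not compared, since the number of probes per gene differs. A spot cannot tell fewer stellate cells from less RNA per stellate cell.

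The label was compared with genes outside the set. Across spots, after the spot total and the position in the lobule were taken out, 6875 genes were ranked by their r with the 9 genes, taking the lower of the values of the 2 sections, and the first was Dcn, which encodes decorin, a small proteoglycan of stellate cells and fibroblasts, with r = 0.45 over 2309 WT spots and 0.32 over 2163 C75S spots. It was followed by Plvap, an endothelial diaphragm gene (0.32 and 0.33, above Dcn in C75S), Sod3, extracellular superoxide dismutase (0.36 and 0.31), Tmsb4x, thymosin beta 4 (0.39 and 0.29), and Col14a1, a fibril-associated collagen (0.36 and 0.29). Further down, the stellate cell genes Hand2 and Gdf2 stood among macrophage genes (C1qa and C1qc) and genes of most cell types (Tpt1 and Fth1). The ranking thus does not single out stellate cells. Spots of 1 section share a library, so these values are descriptions without a test.

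Between the sections, 3 of the 9 genes were at least 1.2-fold higher in C75S (Reln, Ecm1 and Hgf), 2 were at least 1.2-fold lower (Lrat and Vim), and 4 lay within 1.2-fold (Colec11, Rgs5, Pdgfrb and Des). Among the 11253 genes whose UMIs in the sections added up to at least 100, 8.98% were higher and 17.3% lower by this rule. The 2 lower members are thus close to the share of all genes. The median log2 ratio of the members, C75S over WT, was 0.07, beside -0.05 over all genes tested, of which the middle 90% by rank lay between -0.53 and 0.38. The plot of levels by section shows the 9 genes in the order of this ratio.

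**Figure D1:**
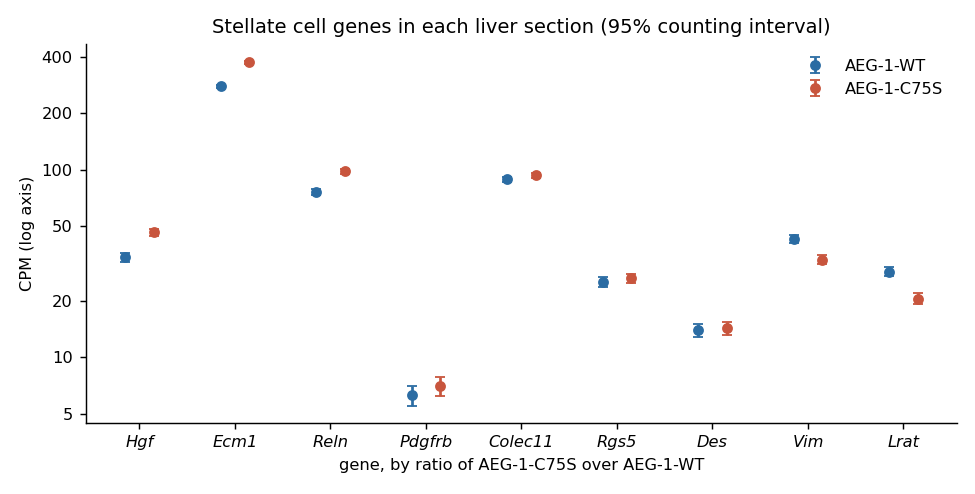
Level of each of the 9 stellate cell genes in CPM (log axis) in the WT section (blue) and the C75S section (red). Points are section totals and bars are exact 95% counting intervals. Hgf, Ecm1 and Reln were higher in C75S, Vim and Lrat were lower, and the other 4 genes lay close together.

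Of the secreted proteins, reelin, a large glycoprotein best known for guiding neurons and made in the liver mainly by stellate cells, was encoded by 3212 UMIs in WT and 4105 in C75S. Its gene Reln stood at 76.0 CPM (73.4 to 78.7) in WT and 98.5 CPM (95.5 to 101.6) in C75S, a log2 ratio of 0.37 (0.31 to 0.44). Ecm1, which encodes an extracellular matrix protein that keeps TGF-beta in its latent form, had the most UMIs of the set, 11796 and 15600. It stood at 279 CPM in WT and 374 CPM in C75S, a log2 ratio of 0.42 (0.39 to 0.46). Hgf, the hepatocyte growth factor that acts on hepatocytes through the receptor Met, stood at 34.1 CPM (32.3 to 35.9) and 46.4 CPM (44.3 to 48.5), a log2 ratio of 0.44 (0.35 to 0.54). The counting intervals of the sections did not overlap for any of these 3 genes. They cover counting error only, and the share of all genes for which this holds was not computed. Colec11, which encodes a collectin that recognises sugars and starts the lectin pathway of complement, differed by a log2 ratio of 0.07 (0.01 to 0.14).

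Lrat, which encodes the enzyme that esterifies retinol for storage, went the other way. It was counted 1209 times in WT and 855 times in C75S, which is 28.6 CPM (27.0 to 30.3) against 20.5 CPM (19.2 to 21.9), a log2 ratio of -0.48 (-0.61 to -0.35). At least 1 Lrat UMI was present in 40.0% of WT spots and 31.4% of C75S spots. When every spot was thinned to 3000 UMIs, with 4 and 3 shallower spots left out, the shares were 8.11% (7.03 to 9.30) and 6.20% (5.22 to 7.30). The same thinning gave 54.9% and 64.1% of spots with Ecm1, 21.2% and 24.4% with Reln, and 9.98% and 13.3% with Hgf. At equal depth, the share was lower in C75S for Lrat and higher for each of the 3 secreted factors, and the intervals of the sections overlapped for Lrat and for Reln.

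The receptor and signalling genes Pdgfrb and Rgs5 lay within 1.2-fold between whole sections. Pdgfrb, the receptor for platelet-derived growth factor B, was the least counted member, with 264 UMIs in WT and 292 in C75S (6.25 and 7.01 CPM), and its log2 ratio of 0.17 had an interval from -0.08 to 0.41. Rgs5, a regulator of G protein signalling that marks pericytes, stood at 25.3 CPM and 26.3 CPM, a log2 ratio of 0.06 (-0.07 to 0.18). For the intermediate filament genes, Des (desmin) stood at 13.9 CPM and 14.3 CPM, with a log2 ratio of 0.04 (-0.13 to 0.20). Vim (vimentin), which all mesenchymal cells use, stood at 42.7 CPM (40.7 to 44.7) in WT and 33.2 CPM (31.5 to 35.0) in C75S, a log2 ratio of -0.36 (-0.46 to -0.26).

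The upstream sequences of the members that moved most are shown because 3 genes were higher and Lrat was lower in the same section. The 250 bases before the RefSeq start (build GRCm38.p6, the assembly called mm10) were searched on both strands for the GC box GGGCGG, the TATA box TATAAA, the CCAAT box CCAAT, the AP-1 site TGAGTCA, the E-box CAGCTG and the nuclear receptor half-site AGGTCA, and matches are in capitals. Sequences run 5′ to 3′ on the strand of the gene, and Vim, whose RefSeq window lies inside an annotated transcript, is not shown. Another RefSeq window of Hgf, whose start lies 406 bases further into the gene, is not shown either.
Reln, minus strand, chr5:22344706-22344955: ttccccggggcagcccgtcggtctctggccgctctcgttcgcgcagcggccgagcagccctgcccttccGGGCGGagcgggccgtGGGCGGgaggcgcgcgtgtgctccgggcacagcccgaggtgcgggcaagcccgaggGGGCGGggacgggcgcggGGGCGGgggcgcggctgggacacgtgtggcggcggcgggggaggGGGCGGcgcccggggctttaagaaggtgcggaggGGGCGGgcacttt
Ecm1, minus strand, chr3:95739570-95739819: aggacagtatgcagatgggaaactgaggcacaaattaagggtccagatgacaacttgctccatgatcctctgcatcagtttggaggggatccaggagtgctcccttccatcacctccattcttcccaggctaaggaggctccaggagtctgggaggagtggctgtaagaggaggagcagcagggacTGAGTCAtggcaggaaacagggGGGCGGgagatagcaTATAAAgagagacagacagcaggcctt
Hgf, plus strand, chr5:16553245-16553494: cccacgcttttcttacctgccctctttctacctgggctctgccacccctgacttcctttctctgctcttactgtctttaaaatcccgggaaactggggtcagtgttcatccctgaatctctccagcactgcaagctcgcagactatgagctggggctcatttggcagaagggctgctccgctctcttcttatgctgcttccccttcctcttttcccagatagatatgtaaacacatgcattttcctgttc
Lrat, minus strand, chr3:82903975-82904224: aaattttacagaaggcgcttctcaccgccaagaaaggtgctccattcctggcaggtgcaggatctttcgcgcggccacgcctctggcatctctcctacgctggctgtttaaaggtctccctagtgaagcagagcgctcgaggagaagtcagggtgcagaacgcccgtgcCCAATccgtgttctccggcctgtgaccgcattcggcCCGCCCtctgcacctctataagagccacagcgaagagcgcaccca

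The 4 windows differ in make-up. The Reln window is 80.0% G and C and holds 6 GC boxes, whereas the Ecm1 window is 54.0% G and C and holds 1 AP-1 site, 1 GC box and 1 TATA box, the last ending 22 bases before the start. The Lrat window (59.2% G and C) holds 1 CCAAT box on the strand of the gene and 1 GC box on the opposite strand. The Hgf window shown (50.8%) holds none of the 6 motifs. No match overlaps another. Of 32536 upstream windows of the same length, 33.0% hold a GC box, 33.8% a CCAAT box, 12.3% a TATA box, 13.1% the E-box, 14.0% the half-site and 4.45% the AP-1 site. None of these motifs is in the windows of all 3 genes that were higher in C75S. The GC box is shared by Reln and Ecm1, but it is also in the windows of Lrat, which was lower, and Des, which lay within 1.2-fold. A match is a run of letters and not a measured binding site, and no match says only that these letters are not in the window.

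Portal fibroblasts and vascular smooth muscle also use Vim, Des and Pdgfrb, so the spots were split by markers of those cells. The connective tissue spots of each section are the 10% with the highest summed CPM of 12 markers, 7 of portal fibroblasts and 5 of smooth muscle, none of them a member. This gave 230 WT spots with 10.4% of the UMIs and 216 C75S spots with 8.16%. Ranked over both sections together, the highest 10% were 313 WT and 134 C75S spots. The C75S class therefore holds spots poorer in these markers than the WT class. Gas6, one of the fibroblast markers, had the most UMIs of the 12, 4393 in WT and 2513 in C75S. The class thus rests largely on this gene. The marker sums themselves differed between the sections: the fibroblast markers summed to 172 CPM in WT and 89.4 CPM in C75S, with 6 of 7 lower, and the smooth muscle markers to 31.7 and 9.07 CPM, with all 3 that were counted often enough lower. No marker of either list was at 0 in either section, and the 5 cholangiocyte markers were also lower in sum (129 and 96.6 CPM, 4 of 5 lower). The smooth muscle actin gene Acta2 stood at 9.37 CPM in WT and 0.888 CPM in C75S, and the fibroblast gene Clec3b at 3.79 and 0.504 CPM.

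In WT, the 3 filament and receptor genes were concentrated in these connective tissue spots. Vim stood at 110.9 CPM there and 34.8 CPM in the other spots, 3.19-fold more, Des at 36.9 and 11.3 CPM, 3.27-fold, and Pdgfrb at 17.1 and 4.99 CPM, 3.42-fold. In C75S the corresponding folds were 1.54 for Vim (49.1 against 31.8 CPM), 1.62 for Des (22.1 against 13.6 CPM) and 1.48 for Pdgfrb (10.00 against 6.74 CPM). Of all UMIs of these genes, 27.0% of Vim, 27.5% of Des and 28.4% of Pdgfrb came from the connective tissue spots in WT, and 12.1%, 12.6% and 11.6% in C75S. Reln, Ecm1 and Hgf were no higher in the connective tissue spots of either section, with folds from 0.855 (Hgf, WT) to 0.964 (Reln, C75S). Colec11, Lrat and Rgs5 lay between 1.02-fold and 1.22-fold.

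The section ratio differed between the classes of spot for these 3 genes. The classes were cut within each section and are unlike in marker level. A lower ratio inside them can thus follow from the cut for genes that fibroblasts and smooth muscle use. Inside the connective tissue spots the log2 ratio of C75S over WT was -1.17 (-1.44 to -0.92) for Vim, -0.74 (-1.16 to -0.34) for Des and -0.77 (-1.40 to -0.17) for Pdgfrb. Outside them it was -0.13 (-0.24 to -0.02) for Vim, 0.27 (0.08 to 0.46) for Des and 0.43 (0.16 to 0.71) for Pdgfrb. Lrat was lower in both classes, by -0.43 inside and -0.48 outside. Reln (0.47 and 0.36), Ecm1 (0.54 and 0.41) and Hgf (0.60 and 0.43) were higher in both.

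With the connective tissue spots left out, 5 members were thus higher by at least 1.2-fold (Reln, Ecm1, Hgf, Pdgfrb and Des) and 1 lower (Lrat), the median log2 ratio was 0.27, and 10.3% of 11041 genes were higher and 15.6% lower. The same 5 genes and Lrat were named when 20% of the spots of each section were left out, or 10% of the spots of both sections pooled (313 of WT and 134 of C75S), settings added after these values were seen. The difference in Vim between whole sections moved with the fibroblast and smooth muscle markers, and their part in it was not tested beyond this split.

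**Figure D2:**
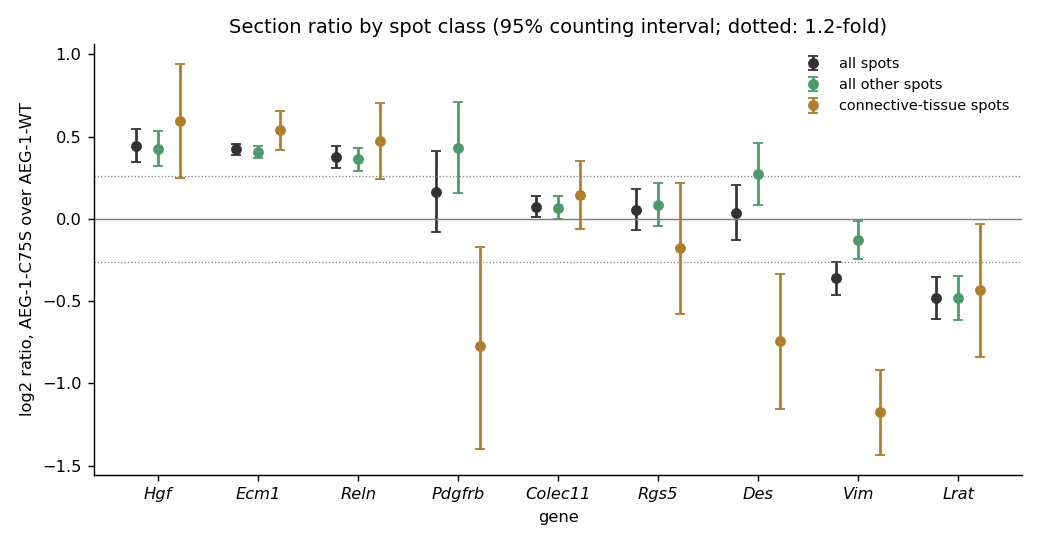
Log2 ratio of C75S over WT for each gene over all spots (black), outside the connective tissue spots (green) and inside them (brown), with exact 95% counting intervals; dotted lines mark 1.2-fold. Pdgfrb, Des and Vim lay lowest inside the connective tissue spots (-0.77, -0.74 and -1.17), while Hgf, Ecm1, Reln and Lrat kept their direction in both classes. The connective tissue spots were cut within each section and are unlike in marker level.

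Position in the lobule was read from 2 hepatocyte genes, the periportal Cyp2f2 and the pericentral Cyp2e1. The spots of each section were ranked by (Cyp2f2 + 1)/(Cyp2e1 + 1) and cut into 5 bins of equal size, from bin 1 (pericentral) to bin 5 (periportal), of 461 or 462 spots in WT and 432 or 433 in C75S. Reln and Ecm1 were at least 1.2-fold lower in the periportal than in the pericentral bin of both sections, and Pdgfrb was at least 1.2-fold higher in both. Of 10223 genes with at least 100 UMIs in each section, 13.2% were lower and 5.27% higher in both. The median log2 ratio of periportal over pericentral bin was -0.02 in WT and -0.15 in C75S for the members, and -0.12 and -0.09 for all genes.

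Reln declined toward the portal side. From bin 1 to bin 5 it stood at 84.8, 89.9, 78.5, 71.9 and 53.8 CPM in WT, and at 113.9, 116.0, 102.2, 90.1 and 69.8 CPM in C75S. The log2 ratio of bin 5 over bin 1 was -0.66 (-0.84 to -0.48) and -0.71 (-0.86 to -0.56). Both profiles peaked in bin 2 and were lowest in bin 5.

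Ecm1 held its level further into the lobule before it declined. It stood at 297, 325, 304, 256 and 209 CPM in WT and at 383, 409, 438, 365 and 276 CPM in C75S, with log2 ratios of -0.51 (-0.60 to -0.42) and -0.47 (-0.55 to -0.39). The peak was in bin 2 of WT and bin 3 of C75S. Lrat and Hgf were also lowest in the periportal bin of both sections, with outer log2 ratios for Lrat of -0.29 (-0.57 to -0.02) and -0.25 (-0.59 to 0.08), and for Hgf of -0.32 (-0.58 to -0.06) and -0.15 (-0.38 to 0.08). The C75S intervals of both genes reached past 0.

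Colec11 was lower in the outer bins than in the 3 bins between them, with its highest level in bin 4 of WT and bin 3 of C75S. In WT it stood at 77.7 CPM in bin 1, 100.3 CPM in bin 4 and 76.8 CPM in bin 5, and in C75S at 85.9 CPM in bin 1, 105.1 CPM in bin 3 and 83.0 CPM in bin 5. Its ends were alike within counting error, with log2 ratios of -0.02 (-0.18 to 0.15) and -0.05 (-0.20 to 0.10). Rgs5 ranged over the bins from 24.2 to 26.4 CPM in WT and from 21.1 to 29.8 CPM in C75S.

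Pdgfrb ran the opposite way to Reln. It stood at 4.41, 4.92, 5.25, 8.42 and 8.30 CPM from bin 1 to bin 5 of WT, and at 4.30, 6.80, 6.39, 8.20 and 9.34 CPM in C75S. The log2 ratio of the outer bins was 0.91 (0.30 to 1.55) and 1.12 (0.53 to 1.74). In WT the connective tissue spots lay mostly toward the portal side, with 71 and 67 in bins 4 and 5 against 34 in bin 1. In C75S they were spread more evenly, with 41, 32, 30, 58 and 55 from bin 1 to bin 5. Gas6, on which the class largely rests, was not higher in bin 5, with outer log2 ratios of -0.13 in WT and -0.46 in C75S. Of 6 fibroblast markers with at least 100 UMIs in each section, 3 were at least 1.2-fold higher in bin 5 of both. Without the connective tissue spots, the Pdgfrb log2 ratio of the outer bins was 0.29 in WT and 0.89 in C75S.

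Des and Vim had their highest levels in bin 4 of both sections. Des stood at 17.0 CPM there in WT and 17.2 CPM in C75S, against 11.1 and 12.1 CPM in bin 1. Vim stood at 50.7 CPM in bin 4 and 35.6 CPM in bin 1 of WT, whereas in C75S it stayed between 32.2 and 34.3 CPM in all bins. Without the connective tissue spots, the Vim log2 ratio of the outer bins changed from 0.25 to -0.14 in WT and from 0.04 to -0.03 in C75S.

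**Figure D3:**
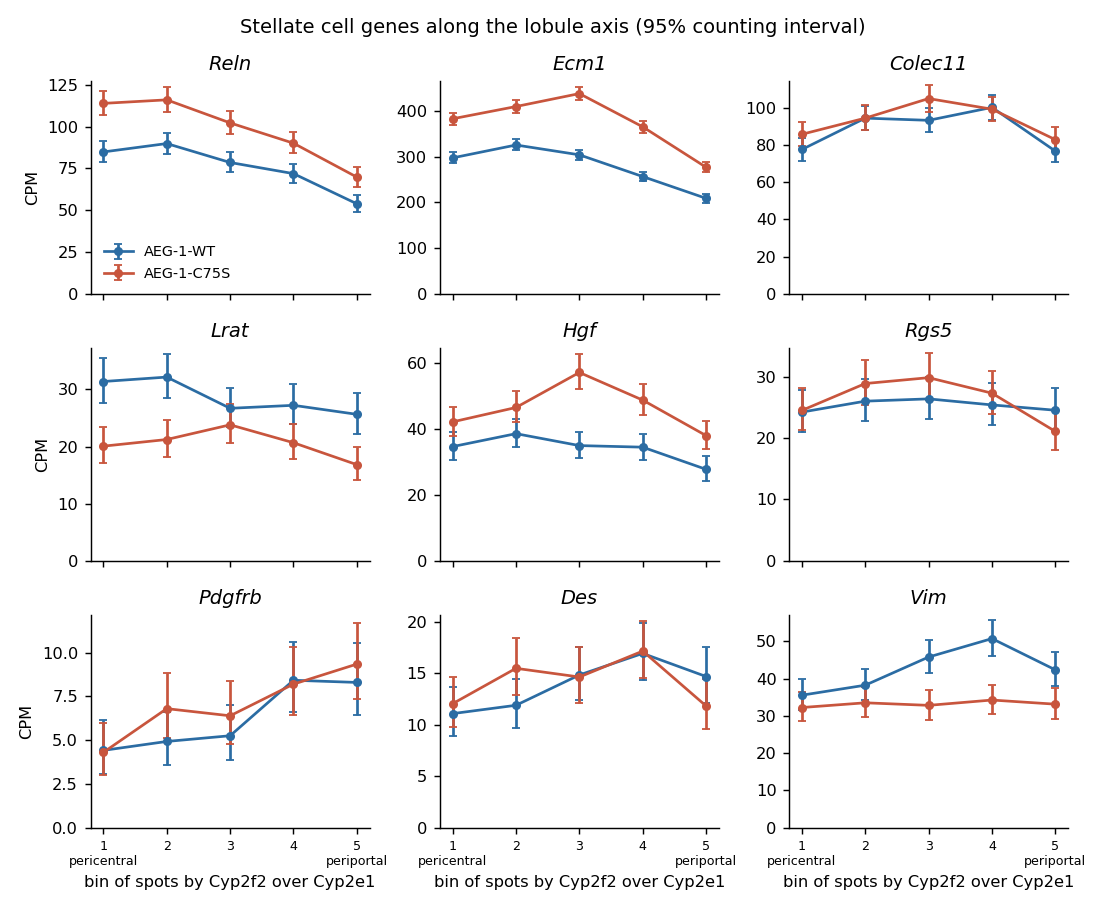
Level of each gene in CPM along the lobule, from bin 1 (pericentral) to bin 5 (periportal), in WT (blue) and C75S (red), with exact 95% counting intervals; the level axis starts at 0 and differs between panels. Reln and Ecm1 declined toward the portal side in both sections, Colec11 was lowest in the outer bins, Pdgfrb was higher in bin 5 than in bin 1, and the WT and C75S curves of Vim were furthest apart in bin 4 (50.7 and 34.3 CPM).

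Summed over the 9 genes, the level was 601, 661, 629, 591 and 482 CPM from bin 1 to bin 5 in WT and 718, 772, 810, 711 and 559 CPM in C75S, and Ecm1 alone makes up much of these sums. The 8 markers of sinusoidal endothelium, which lines the same sinusoids, were also lowest in the periportal bin, at 589 CPM in WT and 643 CPM in C75S, against 766 and 750 CPM in bin 1. The 5 cholangiocyte markers, which mark the bile ducts of portal tracts, went from 30.5 CPM in bin 1 to 261.7 CPM in bin 5 of WT and from 37.1 to 154.6 CPM in C75S. Without the connective tissue spots, the log2 ratio of bin 5 over bin 1 was -0.62 in WT and -0.69 in C75S for Reln. For Ecm1 it was -0.50 and -0.46. This split rests largely on Gas6, and the part of portal tracts in the lower periportal levels was not tested beyond it.

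Within each bin, the section ratio of the secreted factors had the same direction. For Reln it ranged from 0.33 to 0.43 on the log2 scale, for Ecm1 from 0.33 to 0.53 and for Hgf from 0.27 to 0.71, and the counting interval lay above 0 in all 5 bins for each of the 3 genes. These genes were picked by their ratio over whole sections, and the bins are parts of the same counts. The same direction in the bins is thus no separate support, and the share of all genes with it was not computed. Hgf differed most in bin 3, where it stood at 34.8 CPM in WT and 57.0 CPM in C75S. Lrat was lower in C75S in all 5 bins, from -0.65 in bin 1 to -0.17 in bin 3, where the interval (-0.45 to 0.12) held 0. Vim was lower most in bin 4, at -0.57 (-0.78 to -0.35), and in bins 1 and 2 its intervals held 0.

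**Figure D4:**
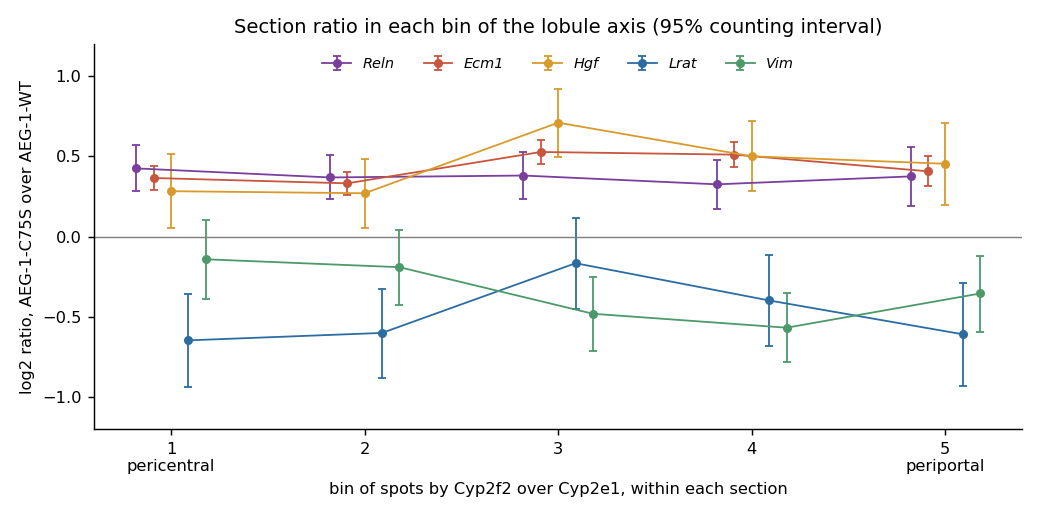
Log2 ratio of C75S over WT in each bin of the lobule for the 5 genes past 1.2-fold between whole sections, with exact 95% counting intervals. Reln, Ecm1 and Hgf lay above 0 in every bin, and Lrat and Vim below 0, with intervals that reach 0 for Lrat in bin 3 and for Vim in bins 1 and 2. The bins are parts of the counts by which these genes were picked.

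Across the spots of a section, r with the other members was highest for Ecm1, Colec11 and Reln at full depth. After the spot total and the bin were taken out, r with the mean of the other 8 genes was 0.30 in WT and 0.33 in C75S for Ecm1, 0.25 and 0.27 for Colec11, and 0.24 and 0.25 for Reln. It was 0.16 in both for Hgf, 0.11 and 0.18 for Lrat, and 0.096 and 0.086 for Rgs5. Low counts lower such values: with every spot thinned to 3000 UMIs, the median over the members changed from 0.19 to 0.037 in WT and from 0.16 to 0.020 in C75S. This order was not kept after thinning, where Vim (0.10) and Pdgfrb (0.082) were highest in WT and Reln stood at 0.025. By pairs, Colec11 with Ecm1 (0.29 and 0.27) and Reln with Ecm1 (0.26 and 0.26) were the closest pairs in C75S and, after Des with Vim, in WT. The median r over the 36 pairs was 0.051 in WT and 0.047 in C75S. In each section 34 of 36 pairs were above 0, and the share among pairs of other genes was not computed.

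Des, Vim and Pdgfrb went together by pairs in WT. There, r was 0.31 between Des and Vim, 0.25 between Pdgfrb and Vim and 0.14 between Pdgfrb and Des, whereas in C75S the values were 0.05, -0.01 and 0.01. With the mean of the other members, Vim had 0.19 in WT and 0.09 in C75S, Des 0.19 and 0.05, and Pdgfrb 0.16 and 0.08. On log2(CPM + 1) per spot the order of the sections turned for all 3, with 0.12 in WT and 0.18 in C75S for Vim, 0.09 and 0.11 for Des, and 0.08 and 0.10 for Pdgfrb. Left to the spots outside connective tissue, these 3 genes stood at 0.068, 0.064 and 0.066 in WT, while Reln, Colec11 and Ecm1 stood at 0.28, 0.29 and 0.36. The spread of Vim over spots, as the variance of its residuals (near 1 where spots differ by counting alone), was 2.16 in WT and 1.03 in C75S. For Ecm1 it was 1.90 and 1.93.

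Among 21 other genes used to recognise stellate cells, 20 had at least 100 UMIs, of which 10 were higher in C75S by 1.2-fold, 3 lower and 7 neither, with a median log2 ratio of 0.26. Of all genes tested, 8.98% were higher and 17.3% lower, with a median of -0.05, and these shares also apply to the lists that follow. For the endothelial and retinoid lists, with 1 lower gene each, the count is close to this share. The lists were chosen with earlier results of these data known. Among the 20 genes, the highest was Hhip, a hedgehog-binding protein (4.64 and 8.47 CPM, log2 ratio 0.87, 0.61 to 1.13), and the lowest Cygb, cytoglobin (13.7 and 9.14 CPM, -0.59, -0.78 to -0.40). Dcn stood at 106.9 and 136.3 CPM (0.35), Sod3 at 118.6 and 146.3 CPM (0.30), and Gdf2 and Bmp10, which encode ligands of the endothelial receptor ALK1, at 33.8 and 43.4 CPM (0.36) and 5.11 and 6.89 CPM (0.43). Cxcl12, a chemokine that endothelial and stromal cells also make, was lower, at 365.8 and 296.6 CPM (-0.30). Outside connective tissue spots, Cygb differed by -0.19.

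The genes of other cell types in the sinusoid did not all go the same way. Of the 8 endothelial markers, none was higher by 1.2-fold and 1 was lower (Lyve1, 96 and 69 UMIs), and they summed to 741 CPM in WT and 762 CPM in C75S. Of 5 Kupffer cell markers, 4 were higher and none lower, and they summed to 815 and 1088 CPM. They differed in size, from Marco (34.8 and 106.8 CPM, log2 ratio 1.62) to Clec4f (262.9 and 282.3 CPM, 0.10), which lay within 1.2-fold. None of the markers of these 2 lists was at 0. The Kupffer cell markers moved in the same direction as Reln, Ecm1 and Hgf, and their part in these differences was not tested. Of 4 mesothelium markers, Wt1 was at 0 in both sections and Upk3b in WT, and they summed to 2.75 and 1.61 CPM.

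Pericyte genes and genes of stellate cells at either end of the lobule were few, and their counts ranged from 12 to 2088 UMIs per gene in WT. Of 4 pericyte genes with enough UMIs, Rgs4 (log2 ratio 0.49) and Abcc9 (0.28) were at least 1.2-fold higher in C75S. Notch3 was lower (-0.61), and Kcnj8 (0.20) lay within 1.2-fold. Of 4 genes of stellate cells near the central vein, Spon2 was higher (4.73 and 11.6 CPM, 1.29, 1.05 to 1.53) and Adamtsl2 lower (3.91 and 2.35 CPM, -0.73, -1.11 to -0.36), as was Loxl1, a lysyl oxidase (-0.58, and 0.08 outside connective tissue spots). Rspo3, the R-spondin that strengthens Wnt signalling around central veins, differed little between the sections (18.1 and 19.6 CPM, 0.12) but steeply along the lobule, with periportal over pericentral log2 ratios of -1.62 and -2.03. Of genes of stellate cells near portal tracts, Ngfr, Il34 and Igfbp3 had 100 UMIs or more, and all 3 were at least 1.2-fold higher in the periportal bin of both sections. Ngfr (0.40) and Il34 (0.39) were higher in C75S and Igfbp3 lower (-0.45). Outside connective tissue spots, Igfbp3 differed by -0.23 and Notch3 by -0.21, both within 1.2-fold.

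Genes that mark activated stellate cells and the matrix they lay down were mostly lower in C75S. Of 8 with enough UMIs, 5 were lower and 1 higher, with a median log2 ratio of -0.48. Acta2, which is also a smooth muscle gene, differed by -3.40 over all spots (396 and 37 UMIs) and -2.02 outside connective tissue spots. It is one of the markers that define those spots, so its value outside them is set partly by that choice. Col1a1 stood at 25.1 and 8.42 CPM (-1.58), Col1a2 at 35.6 and 20.8 CPM (-0.77), and Col3a1 at 72.2 and 45.2 CPM (-0.68). Outside connective tissue spots these 3 collagen genes differed by -0.78, -0.10 and -0.15, and Ccn2, the other lower one, by -0.29 over all spots and 0.21 outside. The fibroblast and smooth muscle markers moved with them, as given above for Vim.

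The partners of the members were read from short lists. For Hgf, 1 of 5 pathway genes was higher (Plau, the urokinase gene, 130 and 158 UMIs, log2 ratio 0.30, -0.04 to 0.65) and none lower, and the receptor gene Met stood at 68.5 and 69.9 CPM. Hpn, the hepatocyte protease hepsin that can activate the growth factor, stood at 587 and 510 CPM (-0.20). For Pdgfrb, 3 of 6 ligand and receptor genes were lower and 1 higher. Pdgfa was lower (11.9 and 6.79 CPM, -0.81), and so were Pdgfd (-0.43) and Pdgfb, whose interval held 0 (147 and 120 UMIs, -0.27, -0.63 to 0.08), while the co-receptor gene Nrp1 was higher (0.27). Outside connective tissue spots Pdgfa differed by -0.69, Pdgfd by -0.14 and Pdgfb by -0.06. For Reln, the receptor gene Vldlr was lower (488 and 299 UMIs, -0.69, -0.90 to -0.48), and Lrp8 and the adaptor gene Dab1 had at most 15 UMIs per section.

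For Colec11, 2 of 6 genes of the lectin pathway were higher and none lower: Colec10, the collectin that pairs with it (39.7 and 51.3 CPM, log2 ratio 0.37), and Fcna, a ficolin of Kupffer cells (148.6 and 190.1 CPM, 0.35). The protease genes Masp1 and Masp2, at -0.03 and -0.13, lay within 1.2-fold. For Lrat, 1 of 7 retinoid genes was lower, Rarb, a retinoic acid receptor whose own transcription retinoic acid induces (289 and 146 UMIs, -0.97, -1.26 to -0.67), and none was higher. The retinol carrier gene Rbp4 (0.11) and Stra6l (0.14) lay within 1.2-fold. For Des and Vim, 4 of 5 other intermediate filament and linker genes were lower, of which Plec, plectin, was lowest (31.8 and 23.4 CPM, -0.45), and Krt8, a keratin of hepatocytes and ducts, stood at 71.2 and 58.9 CPM (-0.28).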

How the data were processed

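Liver sections of 1 AEG-1-WT and 1 AEG-1-C75S mouse were measured by probe-based 10x Visium on fixed tissue. Per the labels and the study's methods, the authors aligned and counted reads with Space Ranger 2.0.1 against mm10, and deposited raw UMI counts per gene and spot (unit: counts, not normalized); their later steps in Seurat 4.3.0 are not in these counts. Here spots with more than 50000 UMIs were removed (7 AEG-1-WT, 4 AEG-1-C75S), and UMIs were summed per section, bin or spot class and divided by the total. Ratios carry exact binomial 95% intervals of the summed counts. A gene was called past 1.2-fold if it had at least 100 UMIs. On data simulated with counting error only, 99.5% of 200 genes changed 1.5-fold were past 1.2-fold, as were 3.68% of unchanged genes among 11242. Differences between mice or sections were not simulated, so this is not the rate of false calls between the 2 mice. Members and lists were chosen with earlier results of these data known. Named genes are the members, the highest and lowest of each list and the 5 most alike; others are named for their roles, after their values were seen, and some list genes are not reported here. The sequences and their coordinates come from RefSeq; windows for 8 of 9 members were matched by symbol. Python 3.11.15, scipy 1.17.1 and edgeR 4.0.16 (TMM factors only) were used.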

Additional observations from a re-analysis of the deposited data

How the results depend on the processing

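Reln, Ecm1 and Hgf remained at least 1.2-fold higher in C75S, and Lrat lower, under every alternative run, with log2 ratios of 0.29 to 0.45, 0.36 to 0.50, 0.38 to 0.52 and -0.52 to -0.40. No value past 1.2-fold changed sign. Without the 10% of spots of each section highest in connective tissue markers, without 20%, or without 10% of both sections together (the last 2 chosen after seeing the data), 5 members were higher and 1 lower (Pdgfrb and Des added, Vim lost), and the median log2 ratio of the members was 0.27, 0.31 and 0.30. It was 0.15 in UMIs per spot. Pdgfrb was no longer counted as higher in the periportal bin of both sections (0 members) after thinning to 3000 UMIs per spot or with a minimum of 1000 UMIs, since it has too few UMIs for the minimum. Lrat joined Reln and Ecm1 as lower in the periportal bin of both sections (3 members) in UMIs per spot and with the axis from Hal, Gls2, Hsd17b13, Oat and Cyp1a2. Thinning moved the WT median of the outer bins to -0.28. The median r of a member with the others across spots, 0.19 in WT and 0.16 in C75S, was 0.13 in WT without the connective tissue spots, 0.12 and 0.21 on log2(CPM + 1), and 0.037 and 0.020 after thinning, where counts are lower by construction. Over all genes, the split between sections was 1011 higher and 1950 lower, and 1384 and 1484 with TMM factors or 1547 and 1362 in UMIs per spot; between bins it was 539 and 1354, and 857 and 763 with TMM factors. For single members, 71 of the section ratios under alternatives lay within the counting interval and 19 did not. No paired analysis was possible because each genotype has 1 section. With 1 section each, no library could be left out.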

Other observations

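Lrat and Rarb are both induced by retinoic acid, and after their lower levels in C75S had been seen, 5 more genes known to respond to retinoic acid were read. Cyp26b1, which encodes a retinoic acid hydroxylase, stood at 19.7 CPM in WT (834 UMIs) and 7.01 CPM in C75S (292 UMIs), a log2 ratio of -1.49 (-1.69 to -1.30). Cyp26a1, the related hepatocyte enzyme, stood at 4.19 CPM (177 UMIs) and 2.04 CPM (85 UMIs), a log2 ratio of -1.04 (-1.43 to -0.66). Dhrs3, a retinal reductase, lay within 1.2-fold (237.8 and 219.9 CPM, -0.11), and Stra6 and Crabp2 had at most 1 UMI per section.

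Cyp26b1 was lower in all 5 bins of the lobule, from -1.31 (-1.72 to -0.91) in bin 1 to -1.93 (-2.50 to -1.39) in bin 5, and Rarb was too, from -0.72 in bin 3 to -1.45 in bin 4. Outside the connective tissue spots, the log2 ratios were -1.49 for Cyp26b1, -1.05 for Cyp26a1, -0.95 for Rarb and -0.48 for Lrat. Of the newly read genes with at least 100 UMIs, Cyp26b1 and Cyp26a1 were lower by 1.2-fold and Dhrs3 was not. Of all genes, 17.3% were lower by this rule. Lrat and Rarb led to the choice of the group, so their lower levels are no support for it. The values of the other genes are a description.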
